A study of Homo sapiens with 33 samples.

Results

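Interferon response genes are transcribed when a cell detects interferon or foreign nucleic acid, and 47 of them were followed here. The members were named by symbol as a gene group and found in the count table through their Ensembl identifiers, which a table of gene names pairs with symbols. They are 47 of the 60675 genes in the table and of the 17432 genes that passed a filter on low counts, and all 47 passed it. No measured value entered their selection, although they were proposed with earlier results of these data known.

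HT29 is a human colorectal adenocarcinoma line that grows as epithelial cells. The cells received one of 4 traditional herbal formulas as a 70% ethanol extract, at 500, 100 or 20 µg/mL (called the high, medium and low dose), or vehicle, and RNA was sequenced after 24 h. The vehicle is 0.1% DMSO by the labels of the samples, a percentage that differs from the one in the text of the series, and the data do not settle it. Vehicle had 3 libraries (replicates 1, 2 and 3). Each dose of Sagunja-tang and of Samul-tang had 2 (replicates 2 and 3), and each dose of Palmul-tang and of Sibjeondaebo-tang had 3, which makes 33 libraries in 13 groups. As textbook background, Palmul-tang joins the herbs of Sagunja-tang with those of Samul-tang, and Sibjeondaebo-tang adds herbs to Palmul-tang. All libraries are titled batch E. Their sample codes begin in one way for vehicle, in another for Sagunja-tang and Samul-tang and in a further way for the remaining pair, and the labels give no meaning for this. It therefore cannot be told apart from the step between vehicle and extracts, while high, medium and low doses of an extract share a code. Nothing in the labels says that replicates were separate cultures, so a p-value here measures no more than how far these samples spread, and that spread may be technical.

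In textbook terms, type I and type III interferons bind their receptors and activate the kinases JAK1 and TYK2, and a transcription complex that contains STAT2 and IRF9 then enters the nucleus. It binds the interferon-stimulated response element, a repeat of GAAA letters, upstream of genes whose products sense, cut, edit or trap viral RNA and proteins. Many of these genes keep a low tonic level in epithelial cells without added interferon, and no interferon was given to these cells per the labels.

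The response element was looked for in RefSeq promoters (GRCh38.p14) as GAAA followed by any 2 bases and GAAA again, on either strand, in the 250 bases before the start of transcription. RefSeq entries were found for 39 of the 47 members, with 54 entries in all, and 22 of the 39 (56.4%) held at least 1 match. Of all 27305 genes in the promoter table, 3.71% held one in the same length. The 5 promoters printed here run 5′ to 3′ on the strand of the gene, with matches in capitals. Their genes did not all follow the same course. IFIT1, PARP14 and IFITM3 were each lower than vehicle at every high dose. Between low and high dose IFIT1 and PARP14 were called lower with every extract and IFITM3 with 3. SAMD9 was lower than vehicle at each dose, and BST2 was higher than vehicle at the high dose of 3 extracts.
IFIT1, chr10:89392373-89392545, plus strand: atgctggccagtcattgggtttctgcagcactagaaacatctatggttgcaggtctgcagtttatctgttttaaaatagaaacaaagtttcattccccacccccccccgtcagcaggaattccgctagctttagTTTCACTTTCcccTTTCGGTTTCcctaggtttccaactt
PARP14, chr3:122680800-122680829, plus strand: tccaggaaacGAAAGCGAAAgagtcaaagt
IFITM3, chr11:320884-320913, minus strand: gGAAAAGGAAActgttgaGAAACCGAAAct
SAMD9, chr7:93118024-93118229, minus strand: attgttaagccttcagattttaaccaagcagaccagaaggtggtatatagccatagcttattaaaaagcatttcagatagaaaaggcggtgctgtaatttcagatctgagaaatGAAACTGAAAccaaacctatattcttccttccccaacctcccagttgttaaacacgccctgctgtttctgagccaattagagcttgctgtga
BST2, chr19:17405649-17405880, minus strand: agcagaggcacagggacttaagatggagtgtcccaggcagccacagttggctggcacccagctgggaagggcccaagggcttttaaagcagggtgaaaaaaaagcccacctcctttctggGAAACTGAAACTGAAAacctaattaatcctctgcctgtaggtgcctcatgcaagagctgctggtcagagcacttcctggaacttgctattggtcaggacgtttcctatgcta
IFIT1, IFITM3 and BST2 each hold 2 matches, those of BST2 overlapping, and in IFIT1 they lie on the opposite strand and so read TTTC, 2 bases, TTTC. In the PARP14 promoter the match begins 29 bases before the start, and in SAMD9 136 bases before it. GENCODE 29 places the starts of these genes farther upstream than RefSeq, so the bases before the GENCODE gene are shown for IFIT1, SAMD9 and BST2, and for PARP14 and IFITM3, whose matches lie in the first exon of a GENCODE transcript (PARP14-202 and IFITM3-201, exon 1 of each), 30 bases around the matches. IFITM3 also has a GENCODE transcript that starts farther upstream. The BST2 stretch also overlaps exons of the noncoding gene BISPR on the other strand. A match is a description of letters and not a binding site. Of the 22 members with a match, 15 were called lower in at least 1 of the 4 comparisons of high with low dose, and of the 17 without one, 11 were, beside 17.9% of all genes tested. The members without a match in this window include IRF9, STAT2, HERC6 and SAMD9L.

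Total counts ran from 28558866 to 49068019 per library. All 9 colorectal epithelium markers passed the filter, with a summed level of 11544 to 13972 in counts-per-million units (CPM, scaled by TMM factors throughout). Of 8 markers of other cell types 3 passed (COL1A1, PECAM1, CD14), the sum over all 8 was 5.63 to 7.23 CPM, and PTPRC, CD3E and COL1A2 stood at or near 0 in every library. Among the epithelial markers VIL1 was lower at the high than at the low dose with all 4 extracts (-0.29 ± 0.03, -0.34 ± 0.03, -0.35 ± 0.03 and -0.26 ± 0.03), and KRT20 was higher with all but Sagunja-tang (0.32 ± 0.06, 0.29 ± 0.05 and 0.34 ± 0.05). EPCAM was higher with Sagunja-tang (0.16 ± 0.05) and Sibjeondaebo-tang (0.16 ± 0.04), KRT8 was higher with Sibjeondaebo-tang (0.12 ± 0.04) and CDH17 lower with Palmul-tang (-0.31 ± 0.11). The KRT8 call, the CDH17 call and 1 of the 2 EPCAM calls did not pass in at least 1 fit with a library left out. In counts, 1, 1, 1 and 3 of the 9 were called higher and 1, 1, 2 and 1 lower at the high than at the low dose, and against vehicle the high dose had 2, 1, 2 and 3 higher and 3, 4, 3 and 3 lower. Shares of all genes tested were 3.33, 4.10, 7.66 and 15.5% higher and 3.86, 3.43, 6.75 and 14.3% lower against the low dose. Against vehicle they were 18.7, 15.0, 17.3 and 20.5% higher and 18.0, 12.5, 14.8 and 19.1% lower. CDH1, the gene of epithelial cadherin, was lower than vehicle in all 12 comparisons, at -0.35 ± 0.05, -0.22 ± 0.05, -0.21 ± 0.04 and -0.18 ± 0.04 for the high doses. Of these 12 calls, 5 did not pass in at least 1 fit with a library left out. Vehicle had the highest group mean of CDH1 (511 CPM), and the step from vehicle to extracts also separates the sample codes. Markers were thus called in both directions beside the members, and the part of such shifts in the results was not tested. In such bulk samples fewer responding cells and less RNA per cell cannot be told apart.

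Between low and high dose of the same extract, interferon response genes were lower at the high dose, and no member was called higher with any of the 4 extracts. A gene is called where the adjusted p of edgeR's quasi-likelihood test over all 17432 genes is under 0.05. With Sagunja-tang 10 of the 47 members were called lower, where 3.86% of all genes were. With Samul-tang 17 were lower against 3.43% of all genes. With Palmul-tang 11 were lower against 6.75%. With Sibjeondaebo-tang 23 were lower against 14.3%. As shares of the members these counts are 21.3, 36.2, 23.4 and 48.9%. The all-gene shares called higher were 3.33, 4.10, 7.66 and 15.5%, beside 0 members. At an unadjusted p under 0.05 the members higher were 1, 0, 0 and 1 and the members lower were 24, 32, 21 and 30. DESeq2 called 0 members higher and 10, 17, 11 and 20 lower. The median log2 fold change over the 47 members was -0.22, -0.28, -0.17 and -0.29, while that over all genes tested lay between -0.00804 and 0.00166.

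The Sagunja-tang and Samul-tang counts rest on 2 libraries a group. For Sagunja-tang the count of 10 became 2 without high-dose replicate 2 or without low-dose replicate 2, 5 without low-dose replicate 3 and 19 without high-dose replicate 3, when 1 member was called higher. With only its 4 libraries in the fit it became 0. For Samul-tang the 17 became 11 and 10 without high-dose replicates 2 and 3, and 10 and 7 without low-dose replicates 2 and 3. The 11 of Palmul-tang became 6 without low-dose replicate 3, and the 23 of Sibjeondaebo-tang stayed between 16 and 20 over its 6 libraries left out in turn. Of the 61 calls of single members in the 4 comparisons, 37 did not pass in at least 1 such fit, and of the 92 calls of high dose against vehicle 43 did not. Where a named gene is said in the role accounts not to pass without a library, that library alone was left out, and the adjusted p is the one then reached.

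**Figure D1:**
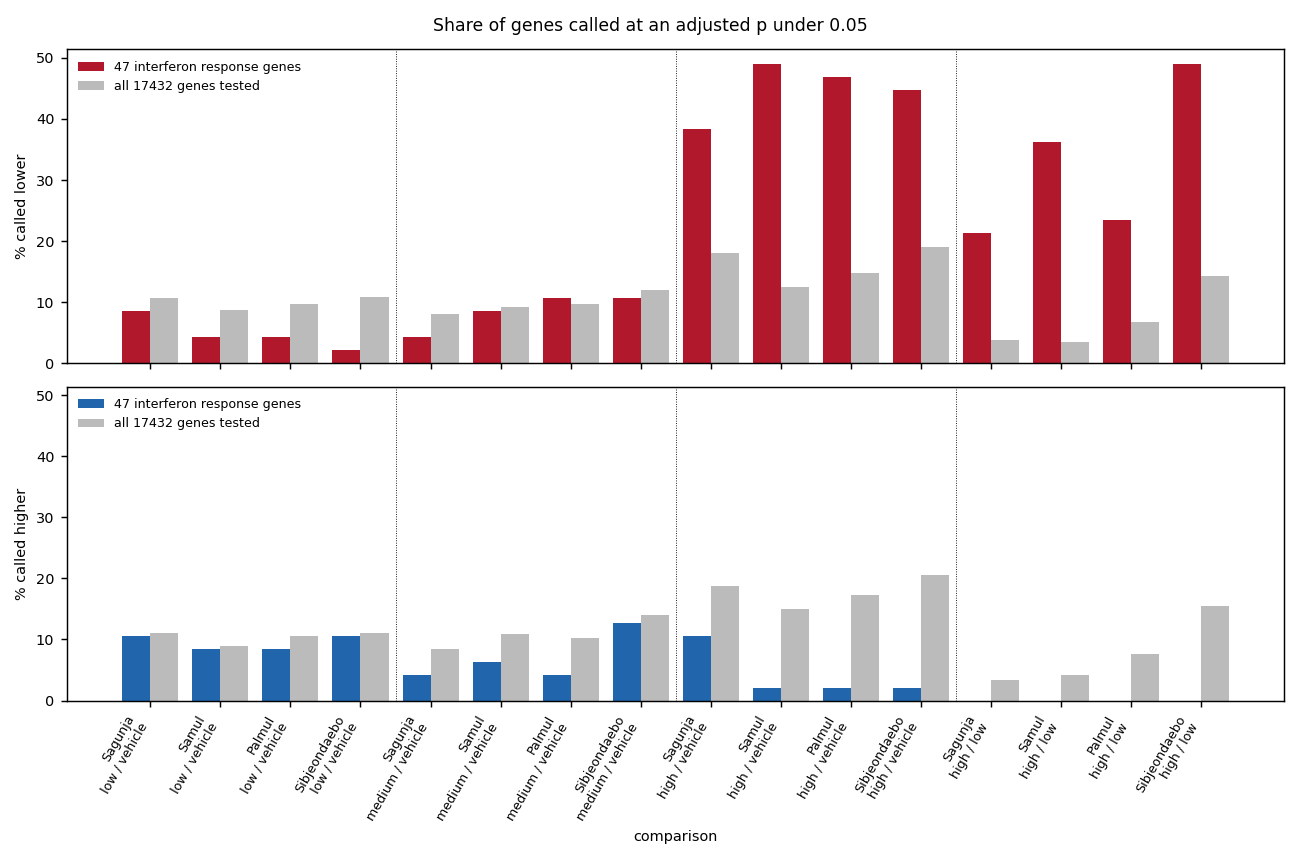
Share of the 47 interferon response genes (coloured bars) and of all 17432 genes tested (grey bars) called lower (upper panel) and higher (lower panel), in percent, for each dose of each extract against vehicle and for high against low dose. At the high dose the members were called lower more often than all genes, for example 48.9% against 14.3% for high against low dose of Sibjeondaebo-tang, while at low and medium doses the coloured and grey bars are of like height or the coloured ones are shorter.

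The medium dose lay between the others for many members. From lowest to highest, group means stood in the order high, medium, low dose for 23 members for Sagunja-tang, 33 members for Samul-tang, 26 members for Palmul-tang and 32 members for Sibjeondaebo-tang. These are 48.9, 70.2, 55.3 and 68.1% of the members, beside 19.99, 23.8, 25.1 and 30.04% of all genes tested. The opposite order held for 2, 2, 1 and 3 members, and for 19.5, 25.6, 26.1 and 29.6% of all genes. Against the medium dose the high dose had 4, 3, 6 and 12 members lower, where 3.26, 1.03, 3.16 and 7.31% of all genes were, and 0 higher, where 3.65, 1.35, 3.80 and 7.00% were (2, 0, 0 and 0 members higher at an unadjusted p under 0.05). The 3 of Samul-tang became 0 without any 1 of its 4 libraries. The 4 of Sagunja-tang became 0 and 13 without high-dose replicates 2 and 3 and 1 without either medium-dose library. Palmul-tang fell from 6 to 3, 2 and 1 without medium-dose replicate 1, high-dose replicate 2 and medium-dose replicate 2, and Sibjeondaebo-tang from 12 to 7 without medium-dose replicate 3.

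To place each library, every member was set against its own mean over the 33 libraries and the median over the 47 members was taken, on a log2 scale. All 10 high-dose libraries had a negative median, from -0.21 to -0.07. Low-dose libraries ran from -0.04 to 0.19, and medium-dose libraries from -0.01 to 0.05. Every high-dose library was thus below every medium-dose and low-dose library. In vehicle the medians were 0.02, 0.17 and 0.02 for replicates 1, 2 and 3, so vehicle replicate 2 was the highest of its group. The pair of high-dose Sagunja-tang libraries stood at -0.20 and -0.07 (replicates 2 and 3).

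**Figure D2:**
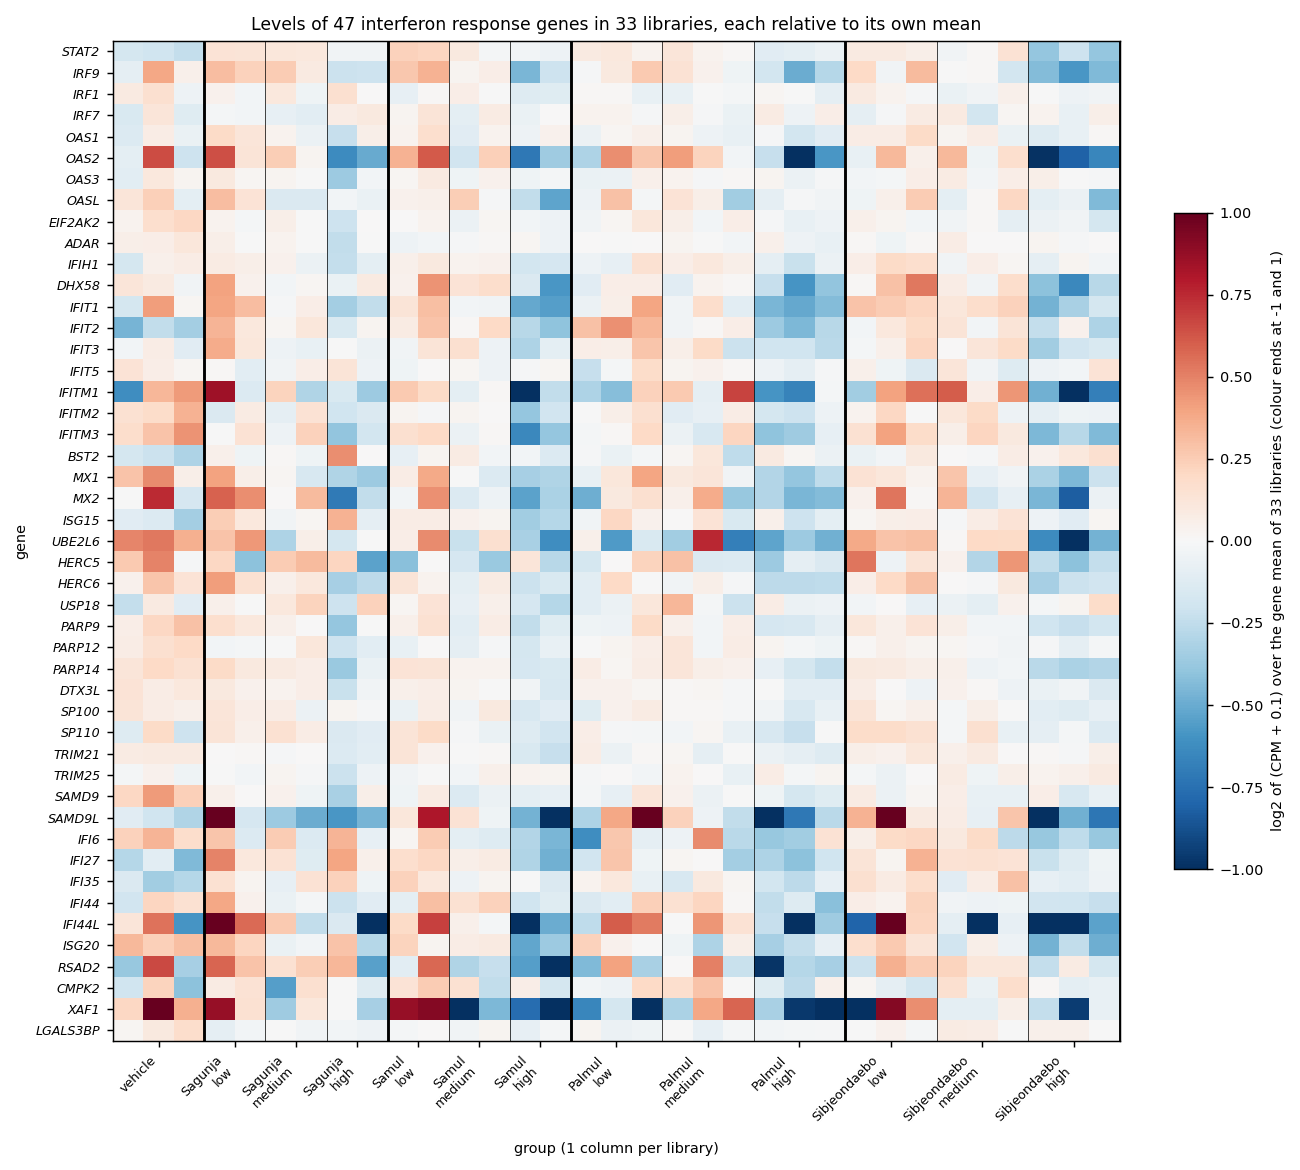
Level of each of the 47 interferon response genes (rows, grouped by role) in each of the 33 libraries (columns, grouped by extract and dose), as the log2 of CPM plus 0.1 over the mean of the gene. Blue columns at the high doses mark the low libraries, and genes such as LGALS3BP, ADAR and TRIM25 stay near white throughout.

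Against vehicle, members were lower at the high dose of every extract, and a few were higher. Called lower were 18 members for Sagunja-tang, 23 for Samul-tang, 22 for Palmul-tang and 21 for Sibjeondaebo-tang, where 18.0, 12.5, 14.8 and 19.1% of all genes were. In percent of the members that is 38.3, 48.9, 46.8 and 44.7%. Called higher were 5 members with Sagunja-tang (STAT2, BST2, ISG15, IFI27, IFI35) and 1 with each of the others (STAT2 with Samul-tang, BST2 with Palmul-tang and Sibjeondaebo-tang), where 18.7, 15.0, 17.3 and 20.5% of all genes were. In either direction 36.7, 27.5, 32.1 and 39.6% of all genes were called. Member medians were -0.21, -0.27, -0.19 and -0.23. All comparisons with vehicle share its 3 libraries. Without high-dose replicate 2 the 23 calls of Sagunja-tang became 9, all of them lower, so that none of its 5 higher calls passed, and with only its 5 libraries in the fit the 23 became 8. The 24 of Samul-tang became 15 without either of its high-dose libraries.

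At the lower doses fewer members were called against vehicle. Member medians were -0.07, -0.09, -0.08 and -0.05 at the medium dose, with 33, 30, 27 and 27 of the 47 below 0, and 0.08, 0.04, -0.07 and -0.01 at the low dose, with 20, 22, 31 and 25 below 0. The medium dose had 2, 4, 5 and 5 members lower (all genes 8.05, 9.27, 9.63 and 12%) and 2, 3, 2 and 6 higher (all genes 8.40, 10.9, 10.3 and 14.0%). The low dose had 4, 2, 2 and 1 lower (all genes 10.7, 8.71, 9.74 and 10.9%) and 5, 4, 4 and 5 higher (all genes 11.1, 8.89, 10.6 and 11.1%). Each share of members lay near or under that of all genes. In either direction the percentages of all genes called were 21.9, 17.6, 20.3 and 22.0% (low dose) and 16.4, 20.1, 20.0 and 26.0% (medium dose). With 1 library left out, the medium-dose counts of both directions became 1 for Sagunja-tang (without either of its libraries), 4, 1 and 4 for Samul-tang (without vehicle replicate 2, its replicate 2 and its replicate 3), 4, 2 and 3 for Palmul-tang (without vehicle replicates 2 and 3 and its replicate 2), and 5 and 4 for Sibjeondaebo-tang (without vehicle replicate 3 and its replicate 3). The low-dose counts became 2 for Sagunja-tang (without its replicate 2), 2 and 3 for Samul-tang (without its replicates 2 and 3), 3, 3 and 2 for Palmul-tang (without vehicle replicates 2 and 3 and its replicate 2), and 10 for Sibjeondaebo-tang (without vehicle replicate 1). Over the mean of the 12 extract groups 16 members were lower and 6 higher (all genes 18.5 and 19.1%, and 37.6% in either direction), and without vehicle replicate 3 these were 10 and 4.

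**Figure D3:**
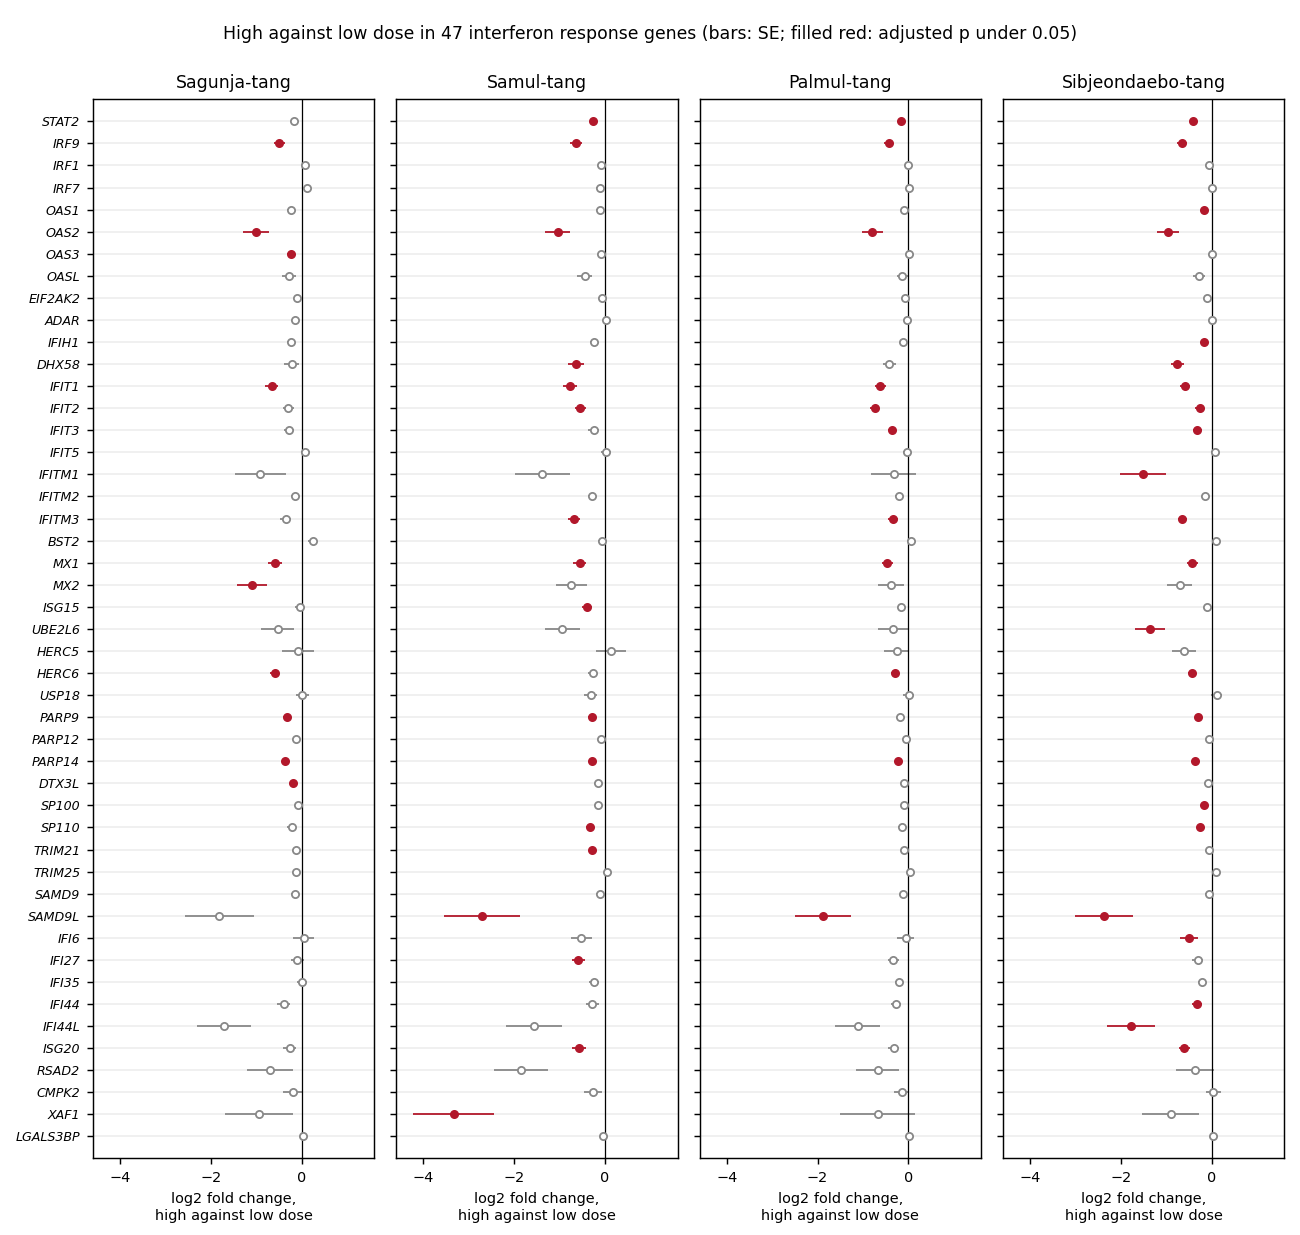
Log2 fold change of high against low dose (horizontal axis, bars show the SE) for each of the 47 members (rows, by role) in the 4 extracts. Filled red points passed an adjusted p of 0.05 and all lie left of 0, and IRF9, OAS2, IFIT1, MX1 and PARP14 are red in all 4 panels.

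Across the 4 comparisons of high with low dose, 34 of the 47 members had a negative log2 fold change in all 4, as did 21.3% of all genes tested. IRF9, OAS2, IFIT1, MX1 and PARP14 were called lower in all 4, and STAT2, IFIT2, IFITM3, HERC6, PARP9 and SAMD9L in 3. DHX58, IFIT3, SP110 and ISG20 were called in 2, a further 15 in 1, and 17 in none. Of all genes tested 1.28, 1.84, 2.99, 11.8 and 82.1% were called lower in 4, 3, 2, 1 and none. Per kilobase of exon, the levels in vehicle were over 10 CPM for 13 members, 1 to 10 CPM for 19 and under 1 CPM for 15. LGALS3BP was the highest at 209 CPM per kilobase, followed by BST2 at 34.9 and ADAR at 32.2. Of the 5 genes called in all 4 comparisons, PARP14 stood at 14.6, IRF9 at 2.74, and IFIT1, MX1 and OAS2 at 0.971, 0.780 and 0.448. The 7 members with every group mean under 1 CPM (IFITM1, UBE2L6, HERC5, SAMD9L, IFI44L, RSAD2, XAF1) rest on few counts.

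**Figure D4:**
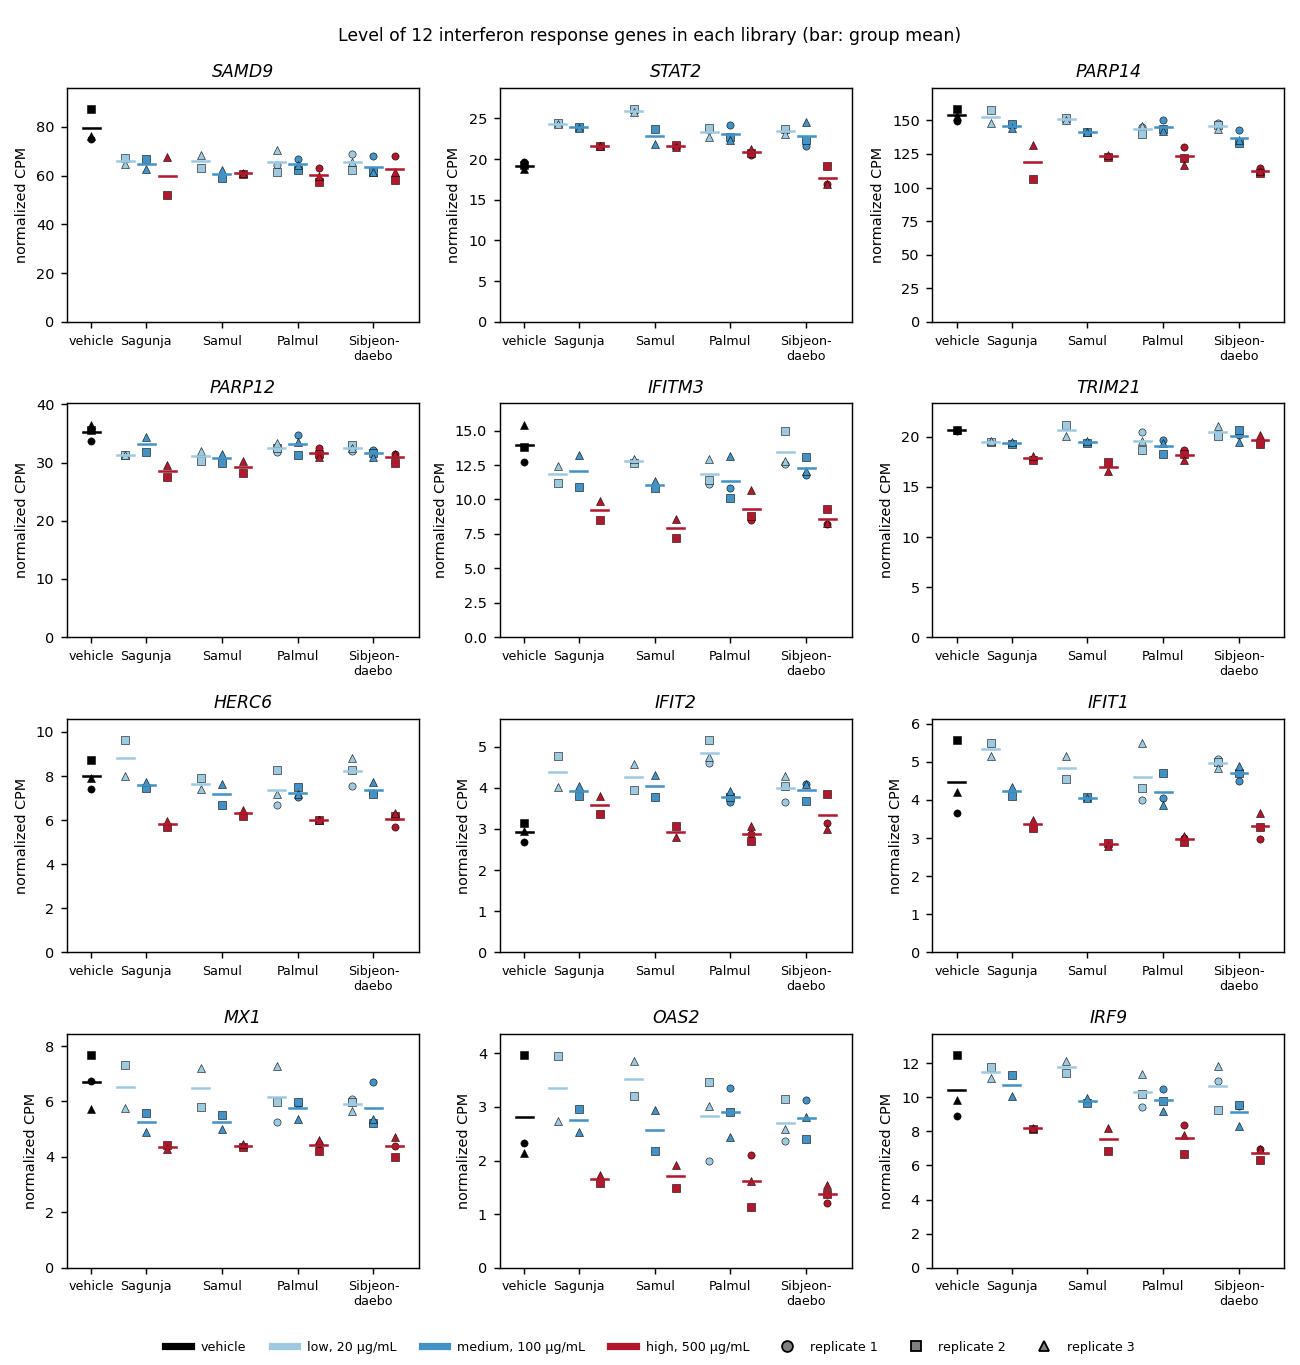
Normalized CPM (vertical axes, from 0) of 12 members described library by library, for vehicle and for the low, medium and high dose of each extract. BST2, which is also described library by library, is not drawn. Symbols are libraries by replicate number and bars are group means. In IRF9, STAT2, IFIT1, MX1, PARP14 and HERC6 the red high-dose libraries lie under all blue libraries of the same extract. The genes were picked by their results in comparisons of these same libraries, so their separation is no test. How many of all genes separate in this way was not counted.

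The transcription factor members differed among themselves. IRF9 (ENSG00000213928, chromosome 14, 24161053 to 24166565), the DNA-binding subunit of the interferon complex, was lower at the high dose with every extract. IRF9 measured 8.91, 12.5 and 9.85 CPM in the 3 vehicle libraries, and at the low dose 11.8 and 11.1 for Sagunja-tang, 11.4 and 12.1 for Samul-tang, 9.40, 10.2 and 11.4 for Palmul-tang and 10.9, 9.26 and 11.9 for Sibjeondaebo-tang. Medium-dose IRF9 values were 11.3 and 10.1 for Sagunja-tang, 9.67 and 9.95 for Samul-tang, 10.48, 9.77 and 9.20 for Palmul-tang and 9.49, 9.57 and 8.33 for Sibjeondaebo-tang. High-dose IRF9 values were 8.15 and 8.21 for Sagunja-tang, 6.88 and 8.22 for Samul-tang, 8.35, 6.68 and 7.78 for Palmul-tang and 6.99, 6.30 and 6.97 for Sibjeondaebo-tang. In each extract the high-dose libraries lay under all of its low-dose and medium-dose libraries, and they were under the vehicle libraries too. The log2 fold changes of high against low dose were -0.49 ± 0.13 (adjusted p = 0.0225) for Sagunja-tang, -0.64 ± 0.13 (adjusted p = 0.00156) for Samul-tang, -0.44 ± 0.11 (adjusted p = 0.00546) for Palmul-tang and -0.66 ± 0.11 (adjusted p = 2.88e-05) for Sibjeondaebo-tang. IRF9 at the high dose against vehicle gave -0.35 ± 0.12 (adjusted p = 0.0258) for Sagunja-tang, -0.46 ± 0.12 (adjusted p = 0.00520) for Samul-tang, -0.46 ± 0.11 (adjusted p = 0.00184) for Palmul-tang and -0.63 ± 0.11 (adjusted p = 5.26e-05) for Sibjeondaebo-tang, while at the medium and low doses IRF9 was not called. Vehicle replicate 2 was the highest vehicle library. IRF9 did not pass against the low dose for Sagunja-tang without high-dose replicate 2 or low-dose replicate 2 or 3 (adjusted p 0.0792 to 0.209) and Samul-tang without high-dose replicate 2 (adjusted p 0.0542). IRF9 did not pass against vehicle for Sagunja-tang without vehicle replicate 2 or high-dose replicate 2 or 3 (adjusted p 0.0856 to 0.227) and Samul-tang without vehicle replicate 2 or high-dose replicate 2 (adjusted p 0.0581 to 0.121). 

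STAT2 (ENSG00000170581, chromosome 12, 56341597 to 56360155), the partner of IRF9 in that complex, followed another course against vehicle. STAT2 measured 19.6, 19.3 and 18.7 CPM in the 3 vehicle libraries, and at the low dose 24.4 and 24.3 for Sagunja-tang, 26.1 and 25.7 for Samul-tang, 23.6, 23.9 and 22.7 for Palmul-tang and 23.6, 23.6 and 23.1 for Sibjeondaebo-tang. Medium-dose STAT2 values were 24.0 and 23.9 for Sagunja-tang, 23.7 and 21.8 for Samul-tang, 24.1, 22.7 and 22.3 for Palmul-tang and 21.7, 22.3 and 24.6 for Sibjeondaebo-tang. High-dose STAT2 values were 21.6 and 21.6 for Sagunja-tang, 21.8 and 21.4 for Samul-tang, 20.4, 20.8 and 21.2 for Palmul-tang and 16.9, 19.2 and 16.9 for Sibjeondaebo-tang. At low and medium dose every extract library was above the vehicle libraries, and at high dose the values returned toward them and, with Sibjeondaebo-tang, overlapped with them. Low against vehicle, the log2 fold changes were 0.34 ± 0.05 (adjusted p = 0.000131) for Sagunja-tang, 0.43 ± 0.05 (adjusted p = 7.47e-06) for Samul-tang, 0.28 ± 0.05 (adjusted p = 0.000323) for Palmul-tang and 0.29 ± 0.05 (adjusted p = 0.000220) for Sibjeondaebo-tang. At the medium dose they were 0.32 ± 0.05, 0.25 ± 0.05, 0.26 ± 0.05 and 0.25 ± 0.05, also called with all 4 extracts. High against low dose, they were -0.17 ± 0.06 (adjusted p = 0.0711) for Sagunja-tang, -0.26 ± 0.06 (adjusted p = 0.00375) for Samul-tang, -0.17 ± 0.05 (adjusted p = 0.0166) for Palmul-tang and -0.41 ± 0.05 (adjusted p = 2.99e-07) for Sibjeondaebo-tang. At the high dose STAT2 was still called higher than vehicle with Sagunja-tang and Samul-tang, by 0.17 ± 0.06 (adjusted p = 0.0182) and 0.17 ± 0.05 (adjusted p = 0.0210). STAT2 did not pass against the low dose for Palmul-tang without high-dose replicate 1 or low-dose replicate 1 or 2 (adjusted p 0.0516 to 0.0684). STAT2 did not pass against vehicle for Sagunja-tang without vehicle replicate 3 or high-dose replicate 2 or 3 (adjusted p 0.0619 to 0.0964) and Samul-tang without vehicle replicate 2 or 3 or high-dose replicate 2 or 3 (adjusted p 0.0506 to 0.139). STAT2 did not pass at the medium dose against vehicle for Samul-tang without medium-dose replicate 2 (adjusted p 0.102). 

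Of the other factors, IRF1 had group means of 28.9 to 33.5 CPM and was called only lower than vehicle at the high dose of Samul-tang (-0.20 ± 0.06). IRF7, the factor that amplifies interferon production, ran from 24.1 to 27.4 CPM and was called in no comparison of dose or with vehicle, with log2 fold changes of high against low dose from -0.11 to 0.11. IRF1 did not pass without vehicle replicate 2 or high-dose replicate 2 or 3 (adjusted p 0.0562 to 0.0846).

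Among the enzymes that respond to double-stranded RNA, OAS2 stood apart from its neighbours. The OAS proteins make short adenylate chains that switch on RNase L. OAS2 (ENSG00000111335, chromosome 12, 112978395 to 113011723) lies beside OAS1 and OAS3. OAS2 measured 2.32, 3.97 and 2.14 CPM in the 3 vehicle libraries, and at the low dose 3.95 and 2.74 for Sagunja-tang, 3.20 and 3.85 for Samul-tang, 1.99, 3.46 and 3.02 for Palmul-tang and 2.36, 3.14 and 2.58 for Sibjeondaebo-tang. Medium-dose OAS2 values were 2.97 and 2.53 for Sagunja-tang, 2.17 and 2.95 for Samul-tang, 3.36, 2.91 and 2.44 for Palmul-tang and 3.14, 2.41 and 2.81 for Sibjeondaebo-tang. High-dose OAS2 values were 1.58 and 1.73 for Sagunja-tang, 1.48 and 1.93 for Samul-tang, 2.11, 1.13 and 1.63 for Palmul-tang and 1.20, 1.38 and 1.55 for Sibjeondaebo-tang. The high-dose libraries were the lowest of each extract except that, with Palmul-tang, low-dose replicate 1 lay below high-dose replicate 1. They were also under all vehicle libraries, among which replicate 2 stood far above the other two. OAS2 at high against low dose gave -1.01 ± 0.29 (adjusted p = 0.0323) for Sagunja-tang, -1.04 ± 0.28 (adjusted p = 0.0172) for Samul-tang, -0.79 ± 0.23 (adjusted p = 0.0213) for Palmul-tang and -0.97 ± 0.24 (adjusted p = 0.00300) for Sibjeondaebo-tang. OAS2 at the high dose against vehicle gave -0.77 ± 0.28 for Sagunja-tang, -0.72 ± 0.27 for Samul-tang, -0.80 ± 0.24 for Palmul-tang and -1.04 ± 0.25 for Sibjeondaebo-tang, all called. At 45 to 167 counts per library the SE is the largest of the 12 genes drawn library by library. OAS2 did not pass against the low dose for Sagunja-tang without high-dose replicate 2 or low-dose replicate 2 (adjusted p 0.287 to 0.306), Samul-tang without high-dose replicate 2 or low-dose replicate 3 (adjusted p 0.167 to 0.185) and Palmul-tang without high-dose replicate 2 or 3 or low-dose replicate 2 or 3 (adjusted p 0.0576 to 0.130). OAS2 did not pass against vehicle for Sagunja-tang without vehicle replicate 2 or high-dose replicate 2 or 3 (adjusted p 0.0783 to 0.266), Samul-tang without vehicle replicate 2 or high-dose replicate 2 or 3 (adjusted p 0.0639 to 0.340) and Palmul-tang without vehicle replicate 2 or high-dose replicate 2 (adjusted p 0.0731 to 0.186). 

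The other enzymes of the group had smaller fold changes than OAS2. OAS1, with group means of 21.9 to 26.3 CPM, was called lower at the high than at the low dose of Sibjeondaebo-tang only (-0.18 ± 0.07). OAS3 (91.5 to 108 CPM) was called at the high dose of Sagunja-tang only (-0.24 ± 0.07 against low dose and -0.19 ± 0.07 against vehicle). OASL (3.16 to 4.86 CPM) was called lower than vehicle at the high dose of Samul-tang (-0.50 ± 0.15). EIF2AK2, which encodes PKR, a kinase that halts translation on sensing double-stranded RNA, had group means of 104 to 123 CPM. It was lower than vehicle at all 4 high doses (-0.24 ± 0.06, -0.18 ± 0.06, -0.19 ± 0.05 and -0.23 ± 0.05) and called in no comparison of high with low dose. ADAR, which edits adenosine to inosine in double-stranded RNA, ran from 272 to 312 CPM and was called only with high-dose Sagunja-tang (-0.20 ± 0.05) and in the mean of all extract groups. OAS1 did not pass without high-dose replicate 1 or 2 or low-dose replicate 1, 2 or 3 (adjusted p 0.0521 to 0.163). OAS3 against low dose did not pass without high-dose replicate 2 or low-dose replicate 2 or 3 (adjusted p 0.0929 to 0.737) and against vehicle without vehicle replicate 2 or 3 or high-dose replicate 2 (adjusted p 0.0560 to 0.802). OASL did not pass without vehicle replicate 2 or high-dose replicate 3 (adjusted p 0.0667 to 0.188). ADAR did not pass without high-dose replicate 2 (adjusted p 0.241). EIF2AK2 with Sagunja-tang did not pass without high-dose replicate 2 (adjusted p 0.155) and with Samul-tang without vehicle replicate 3 or high-dose replicate 2 or 3 (adjusted p 0.0844 to 0.0973).

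The cytosolic RNA sensors among the members are IFIH1, which encodes MDA5, and DHX58, which encodes LGP2. DHX58 had group means of 2.02 to 3.42 CPM and was lower at the high than at the low dose of Samul-tang (-0.65 ± 0.17) and Sibjeondaebo-tang (-0.76 ± 0.14). It was also lower than vehicle at the high dose of Palmul-tang (-0.48 ± 0.15) and Sibjeondaebo-tang (-0.52 ± 0.15). IFIH1 (10.0 to 12.5 CPM) was called only for Sibjeondaebo-tang, high against low dose (-0.17 ± 0.06). DHX58 with Samul-tang did not pass without high-dose replicate 3 or low-dose replicate 3 (adjusted p 0.286 to 0.341) and with Palmul-tang without high-dose replicate 2 (adjusted p 0.0774). IFIH1 did not pass without high-dose replicate 1 or 3 or low-dose replicate 2 or 3 (adjusted p 0.0833 to 0.156).

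The IFIT proteins bind viral RNA, and their genes lie together on chromosome 10. IFIT1 (ENSG00000185745, chromosome 10, 89392546 to 89406486), whose promoter holds a pair of matches on the opposite strand (above), was lower at the high dose with every extract. IFIT1 measured 3.66, 5.57 and 4.21 CPM in the 3 vehicle libraries, and at the low dose 5.49 and 5.16 for Sagunja-tang, 4.54 and 5.15 for Samul-tang, 3.99, 4.32 and 5.50 for Palmul-tang and 5.08, 4.98 and 4.84 for Sibjeondaebo-tang. Medium-dose IFIT1 values were 4.11 and 4.34 for Sagunja-tang, 4.07 and 4.04 for Samul-tang, 4.04, 4.70 and 3.86 for Palmul-tang and 4.49, 4.71 and 4.90 for Sibjeondaebo-tang. High-dose IFIT1 values were 3.25 and 3.49 for Sagunja-tang, 2.88 and 2.80 for Samul-tang, 3.00, 2.89 and 3.05 for Palmul-tang and 2.96, 3.29 and 3.67 for Sibjeondaebo-tang. All high-dose values were under all low-dose and medium-dose values of the same extract, and under vehicle except that high-dose Sibjeondaebo-tang replicate 3 just passed vehicle replicate 1. IFIT1 at high against low dose gave -0.66 ± 0.15 (adjusted p = 0.00700) for Sagunja-tang, -0.77 ± 0.15 (adjusted p = 0.000866) for Samul-tang, -0.62 ± 0.12 (adjusted p = 0.000620) for Palmul-tang and -0.59 ± 0.12 (adjusted p = 0.000359) for Sibjeondaebo-tang. IFIT1 at the high dose against vehicle gave -0.41 ± 0.14 for Sagunja-tang, -0.66 ± 0.14 for Samul-tang, -0.59 ± 0.12 for Palmul-tang and -0.45 ± 0.12 for Sibjeondaebo-tang, all called. IFIT1 did not pass against the low dose for Sagunja-tang without high-dose replicate 2 or low-dose replicate 2 (adjusted p 0.0707 to 0.124). IFIT1 did not pass against vehicle for Sagunja-tang without vehicle replicate 2 or high-dose replicate 2 (adjusted p 0.167 to 0.230) and Sibjeondaebo-tang without vehicle replicate 2 (adjusted p 0.112). 

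IFIT2 (ENSG00000119922, chromosome 10, 89283694 to 89309276) had its lowest levels in vehicle and at the high dose. IFIT2 measured 2.67, 3.13 and 2.94 CPM in the 3 vehicle libraries, and at the low dose 4.76 and 4.02 for Sagunja-tang, 3.95 and 4.58 for Samul-tang, 4.60, 5.16 and 4.73 for Palmul-tang and 3.66, 4.04 and 4.29 for Sibjeondaebo-tang. Medium-dose IFIT2 values were 3.79 and 4.05 for Sagunja-tang, 3.77 and 4.30 for Samul-tang, 3.64, 3.77 and 3.92 for Palmul-tang and 4.09, 3.67 and 4.09 for Sibjeondaebo-tang. High-dose IFIT2 values were 3.35 and 3.80 for Sagunja-tang, 3.06 and 2.80 for Samul-tang, 2.88, 2.71 and 3.07 for Palmul-tang and 3.15, 3.85 and 3.00 for Sibjeondaebo-tang. Every low-dose and medium-dose library was above all 3 vehicle libraries, and the high-dose libraries of Samul-tang and Palmul-tang lay among them. Low against vehicle, IFIT2 rose by 0.59 ± 0.12 (adjusted p = 0.000902) for Sagunja-tang, 0.55 ± 0.12 (adjusted p = 0.00246) for Samul-tang, 0.73 ± 0.11 (adjusted p = 4.33e-05) for Palmul-tang and 0.45 ± 0.11 (adjusted p = 0.00347) for Sibjeondaebo-tang. Medium against vehicle it rose by 0.42 ± 0.12, 0.47 ± 0.12, 0.37 ± 0.11 and 0.44 ± 0.11, all called. IFIT2 at high against low dose gave -0.29 ± 0.12 (adjusted p = 0.148) for Sagunja-tang, -0.54 ± 0.12 (adjusted p = 0.00534) for Samul-tang, -0.74 ± 0.10 (adjusted p = 6.55e-06) for Palmul-tang and -0.26 ± 0.10 (adjusted p = 0.0486) for Sibjeondaebo-tang, and at the high dose no comparison with vehicle was called. IFIT2 did not pass against the low dose for Samul-tang without high-dose replicate 3 or low-dose replicate 3 (adjusted p 0.0779 to 0.116) and Sibjeondaebo-tang without high-dose replicate 1 or 3 or low-dose replicate 2 or 3 (adjusted p 0.108 to 0.210). IFIT2 did not pass at the low dose against vehicle for Samul-tang without low-dose replicate 3 (adjusted p 0.0631). IFIT2 did not pass at the medium dose against vehicle for Sagunja-tang without vehicle replicate 1 or medium-dose replicate 2 or 3 (adjusted p 0.05003 to 0.0951), Samul-tang without medium-dose replicate 3 (adjusted p 0.0849) and Palmul-tang without vehicle replicate 1 or 3 or medium-dose replicate 2 (adjusted p 0.0524 to 0.0682). IFIT3 (7.01 to 9.78 CPM) was lower at the high than at the low dose of Palmul-tang (-0.36 ± 0.10) and Sibjeondaebo-tang (-0.32 ± 0.10) and was not called against vehicle. IFIT5 (6.64 to 7.27 CPM) was called nowhere. IFIT3 with Palmul-tang did not pass without low-dose replicate 3 (adjusted p 0.0776) and with Sibjeondaebo-tang without high-dose replicate 1 or low-dose replicate 3 (adjusted p 0.0791 to 0.0792).

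The membrane restriction factors held members on both sides of vehicle. The IFITM proteins block the entry of enveloped viruses. IFITM3 (ENSG00000142089, chromosome 11, 319669 to 327537) was lower than vehicle at every high dose. IFITM3 measured 12.7, 13.8 and 15.4 CPM in the 3 vehicle libraries, and at the low dose 11.2 and 12.4 for Sagunja-tang, 12.6 and 12.9 for Samul-tang, 11.1, 11.4 and 12.96 for Palmul-tang and 12.6, 14.9 and 12.8 for Sibjeondaebo-tang. Medium-dose IFITM3 values were 10.9 and 13.2 for Sagunja-tang, 10.8 and 11.3 for Samul-tang, 10.8, 10.1 and 13.1 for Palmul-tang and 11.7, 13.1 and 12.1 for Sibjeondaebo-tang. High-dose IFITM3 values were 8.54 and 9.91 for Sagunja-tang, 7.19 and 8.60 for Samul-tang, 8.49, 8.79 and 10.7 for Palmul-tang and 8.24, 9.28 and 8.27 for Sibjeondaebo-tang. High-dose libraries were under all vehicle libraries and under all low-dose libraries of their extract. IFITM3 at the high dose against vehicle gave -0.59 ± 0.12 (adjusted p = 0.000352) for Sagunja-tang, -0.82 ± 0.12 (adjusted p = 1.48e-05) for Samul-tang, -0.58 ± 0.10 (adjusted p = 0.000122) for Palmul-tang and -0.70 ± 0.11 (adjusted p = 8.25e-06) for Sibjeondaebo-tang. IFITM3 at high against low dose gave -0.35 ± 0.13 (adjusted p = 0.0931) for Sagunja-tang, -0.69 ± 0.13 (adjusted p = 0.000711) for Samul-tang, -0.34 ± 0.10 (adjusted p = 0.0281) for Palmul-tang and -0.65 ± 0.10 (adjusted p = 2.66e-05) for Sibjeondaebo-tang. IFITM3 did not pass against the low dose for Palmul-tang without high-dose replicate 1 or 2 or low-dose replicate 3 (adjusted p 0.1101 to 0.151). At the medium dose IFITM3 was called with Samul-tang (-0.33 ± 0.12, adjusted p = 0.0399) and Palmul-tang (-0.30 ± 0.10, adjusted p = 0.0451). IFITM3 did not pass at the medium dose against vehicle for Samul-tang without vehicle replicate 2 or 3 or medium-dose replicate 2 or 3 (adjusted p 0.0732 to 0.268) and Palmul-tang without vehicle replicate 2 or 3 or medium-dose replicate 1 or 2 (adjusted p 0.0880 to 0.221). IFITM1, IFITM2 and IFITM3 are near-identical neighbours on chromosome 11 whose reads the counting could split, so their separate values are uncertain.

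IFITM2 (22.1 to 31.6 CPM) was lower than vehicle at all 4 high doses (-0.40 ± 0.09, -0.51 ± 0.09, -0.37 ± 0.08 and -0.29 ± 0.08) and called in no comparison of high with low dose. IFITM1 stayed at 1 to 26 counts per library and was called with high-dose Sibjeondaebo-tang, against vehicle (-1.34 ± 0.54) and low dose (-1.51 ± 0.51). IFITM1 against vehicle did not pass without vehicle replicate 2 or 3 or high-dose replicate 2 or 3 (adjusted p 0.0795 to 0.184) and against low dose without high-dose replicate 2 or low-dose replicate 2 or 3 (adjusted p 0.0738 to 0.117).

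BST2 (ENSG00000130303, chromosome 19, 17402939 to 17405648) encodes tetherin, which holds budding virus at the cell surface, and its promoter holds a pair of overlapping matches. It was higher than vehicle in 6 of the 12 comparisons, of which 5 did not pass in at least 1 fit with a library left out and 4 did not pass without vehicle replicate 2. BST2 measured 40.6, 39.5 and 37.0 CPM in the 3 vehicle libraries, and at the low dose 47.4 and 44.4 for Sagunja-tang, 43.4 and 46.8 for Samul-tang, 45.5, 43.7 and 45.3 for Palmul-tang and 43.8, 45.1 and 49.2 for Sibjeondaebo-tang. Medium-dose BST2 values were 46.2 and 44.4 for Sagunja-tang, 48.6 and 44.97 for Samul-tang, 46.6, 49.6 and 38.4 for Palmul-tang and 45.9, 45.4 and 48.4 for Sibjeondaebo-tang. High-dose BST2 values were 63.5 and 46.0 for Sagunja-tang, 44.99 and 41.7 for Samul-tang, 48.9, 46.4 and 44.2 for Palmul-tang and 47.2, 49.3 and 51.2 for Sibjeondaebo-tang. Every extract library except medium-dose Palmul-tang replicate 3 exceeded all vehicle libraries, and high-dose Sagunja-tang replicate 2 was far above its partner. At the high dose BST2 rose by 0.48 ± 0.09 (adjusted p = 0.000208) with Sagunja-tang, 0.25 ± 0.08 (adjusted p = 0.0233) with Palmul-tang and 0.33 ± 0.08 (adjusted p = 0.00228) with Sibjeondaebo-tang. With Samul-tang the value was 0.15 ± 0.09 (adjusted p = 0.259). High against low dose BST2 was called nowhere (0.25 ± 0.10, -0.06 ± 0.10, 0.05 ± 0.08 and 0.10 ± 0.08). BST2 was chosen after its values were seen, because they go the other way. BST2 at the high dose of Sagunja-tang did not pass without high-dose replicate 2 (adjusted p 0.0773), at the high dose of Palmul-tang without vehicle replicate 2 or 3 or high-dose replicate 1 or 2 (adjusted p 0.0505 to 0.105), at the medium dose of Samul-tang without vehicle replicate 2 or 3 or medium-dose replicate 2 or 3 (adjusted p 0.0676 to 0.327), at the medium dose of Sibjeondaebo-tang without vehicle replicate 2 or 3 or medium-dose replicate 3 (adjusted p 0.0585 to 0.116) and at the low dose of Sibjeondaebo-tang without vehicle replicate 2 or 3 or low-dose replicate 2 or 3 (adjusted p 0.0660 to 0.176).

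MX1 (ENSG00000157601, chromosome 21, 41420304 to 41459214), a dynamin-like GTPase that traps viral particles, was lower at the high dose with every extract. MX1 measured 6.75, 7.67 and 5.74 CPM in the 3 vehicle libraries, and at the low dose 7.32 and 5.76 for Sagunja-tang, 5.80 and 7.20 for Samul-tang, 5.24, 5.97 and 7.27 for Palmul-tang and 6.09, 5.97 and 5.65 for Sibjeondaebo-tang. Medium-dose MX1 values were 5.60 and 4.92 for Sagunja-tang, 5.50 and 5.00 for Samul-tang, 5.91, 6.00 and 5.37 for Palmul-tang and 6.70, 5.21 and 5.38 for Sibjeondaebo-tang. High-dose MX1 values were 4.45 and 4.27 for Sagunja-tang, 4.36 and 4.45 for Samul-tang, 4.48, 4.20 and 4.61 for Palmul-tang and 4.40, 4.00 and 4.73 for Sibjeondaebo-tang. Within each extract all high-dose values were under all medium-dose and low-dose values, and all were under the vehicle values. MX1 at high against low dose gave -0.59 ± 0.15 (adjusted p = 0.0182) for Sagunja-tang, -0.56 ± 0.15 (adjusted p = 0.0152) for Samul-tang, -0.47 ± 0.12 (adjusted p = 0.00830) for Palmul-tang and -0.43 ± 0.12 (adjusted p = 0.00784) for Sibjeondaebo-tang. MX1 at the high dose against vehicle gave -0.63 ± 0.14 (adjusted p = 0.000923) for Sagunja-tang, -0.61 ± 0.14 (adjusted p = 0.00142) for Samul-tang, -0.60 ± 0.12 (adjusted p = 0.000411) for Palmul-tang and -0.62 ± 0.12 (adjusted p = 0.000203) for Sibjeondaebo-tang, and these calls held with any 1 library left out. MX1 did not pass against the low dose for Sagunja-tang without high-dose replicate 2 or low-dose replicate 2 (adjusted p 0.147 to 0.238), Samul-tang without high-dose replicate 2 or 3 or low-dose replicate 3 (adjusted p 0.0793 to 0.267) and Palmul-tang without low-dose replicate 3 (adjusted p 0.0891). Its neighbour MX2 had group means of 0.553 to 1.20 CPM and was called lower for Sagunja-tang, high against low dose (-1.09 ± 0.34), and for the high dose of Palmul-tang (-0.75 ± 0.28) and Sibjeondaebo-tang (-0.76 ± 0.28) against vehicle. MX2 with Sagunja-tang did not pass without high-dose replicate 2 or low-dose replicate 2 or 3 (adjusted p 0.137 to 0.456), with Palmul-tang without vehicle replicate 2 or high-dose replicate 1, 2 or 3 (adjusted p 0.0660 to 0.413) and with Sibjeondaebo-tang without vehicle replicate 2 or high-dose replicate 1 or 2 (adjusted p 0.0802 to 0.367).

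ISG15 encodes a ubiquitin-like protein that is attached to other proteins by the enzymes UBE2L6 and HERC5 and removed by USP18. ISG15 itself was 20.8, 20.5 and 17.8 CPM in vehicle and 28.7 and 21.1 at the high dose of Sagunja-tang, where it was called higher (0.33 ± 0.10, adjusted p = 0.00929). At the high dose of Samul-tang it was 17.7 and 18.4 CPM, against 23.7 and 23.8 at the low dose, and was called lower (-0.39 ± 0.10, adjusted p = 0.0174). High-dose Sagunja-tang replicate 2 was well above replicate 3, which lay close to vehicle. ISG15 was also higher than vehicle at the low dose of Sagunja-tang (0.37 ± 0.10) and Palmul-tang (0.27 ± 0.09) and the medium dose of Sibjeondaebo-tang (0.26 ± 0.09). ISG15 at the high dose of Sagunja-tang did not pass without vehicle replicate 3 or high-dose replicate 2 (adjusted p 0.0579 to 0.563), for high against low dose of Samul-tang without high-dose replicate 2 or 3 or low-dose replicate 2 or 3 (adjusted p 0.0659 to 0.129), at the low dose of Sagunja-tang without low-dose replicate 2 (adjusted p 0.120), at the low dose of Palmul-tang without vehicle replicate 2 or 3 or low-dose replicate 2 (adjusted p 0.0501 to 0.184) and at the medium dose of Sibjeondaebo-tang without vehicle replicate 3 or medium-dose replicate 2 or 3 (adjusted p 0.0580 to 0.158).

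HERC6 (ENSG00000138642, chromosome 4, 88378739 to 88443111), a relative of HERC5, was lower than vehicle at the high dose of every extract. HERC6 measured 7.42, 8.73 and 7.91 CPM in the 3 vehicle libraries, and at the low dose 9.64 and 8.02 for Sagunja-tang, 7.91 and 7.39 for Samul-tang, 6.70, 8.28 and 7.19 for Palmul-tang and 7.53, 8.27 and 8.83 for Sibjeondaebo-tang. Medium-dose HERC6 values were 7.45 and 7.75 for Sagunja-tang, 6.71 and 7.65 for Samul-tang, 7.05, 7.51 and 7.16 for Palmul-tang and 7.23, 7.16 and 7.73 for Sibjeondaebo-tang. High-dose HERC6 values were 5.70 and 5.98 for Sagunja-tang, 6.20 and 6.46 for Samul-tang, 6.00, 6.00 and 6.03 for Palmul-tang and 5.70, 6.19 and 6.30 for Sibjeondaebo-tang. All high-dose libraries were under all other libraries of their extract and under vehicle. HERC6 at high against low dose gave -0.59 ± 0.10 (adjusted p = 0.000778) for Sagunja-tang, -0.27 ± 0.10 (adjusted p = 0.102) for Samul-tang, -0.30 ± 0.08 (adjusted p = 0.0145) for Palmul-tang and -0.44 ± 0.08 (adjusted p = 0.000166) for Sibjeondaebo-tang. HERC6 at the high dose against vehicle gave -0.46 ± 0.10 for Sagunja-tang, -0.34 ± 0.09 for Samul-tang, -0.42 ± 0.08 for Palmul-tang and -0.41 ± 0.08 for Sibjeondaebo-tang, all called. HERC6 did not pass against the low dose for Palmul-tang without low-dose replicate 2 (adjusted p 0.115). HERC6 did not pass against vehicle for Samul-tang without high-dose replicate 2 (adjusted p 0.0761). UBE2L6 (0.226 to 0.653 CPM) was lower than vehicle at the high dose of Samul-tang (-1.14 ± 0.36), Palmul-tang (-1.12 ± 0.32) and Sibjeondaebo-tang (-1.51 ± 0.33), at 5 to 28 counts per library. It was also called lower at the high than at the low dose of 1 extract. HERC5 (0.422 to 0.679 CPM) and USP18 (3.14 to 4.15 CPM) were called in none of the comparisons, and USP18 may share reads with its near-copy USP41. UBE2L6 with Samul-tang did not pass without high-dose replicate 2 or 3 (adjusted p 0.0593 to 0.154).

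The ADP-ribosyltransferase members and DTX3L were lower than vehicle at all high doses, all 4 genes with all 4 extracts. PARP14 (ENSG00000173193, chromosome 3, 122680618 to 122730840), which adds single ADP-ribose units to proteins, was lower at the high dose with every extract. PARP14 measured 149.7, 158 and 153 CPM in the 3 vehicle libraries, and at the low dose 157 and 148 for Sagunja-tang, 152 and 151 for Samul-tang, 145, 139.7 and 146 for Palmul-tang and 148, 147 and 143 for Sibjeondaebo-tang. Medium-dose PARP14 values were 147 and 144 for Sagunja-tang, 142 and 141 for Samul-tang, 149.9, 144 and 142 for Palmul-tang and 143, 133 and 135 for Sibjeondaebo-tang. High-dose PARP14 values were 107 and 131 for Sagunja-tang, 123 and 124 for Samul-tang, 131, 122 and 117 for Palmul-tang and 114, 111 and 112 for Sibjeondaebo-tang. High-dose libraries were under all medium-dose, low-dose and vehicle libraries, with high-dose Sagunja-tang replicate 2 the lowest of all 33. PARP14 at high against low dose gave -0.36 ± 0.06 (adjusted p = 0.000629) for Sagunja-tang, -0.29 ± 0.06 (adjusted p = 0.00192) for Samul-tang, -0.22 ± 0.05 (adjusted p = 0.00244) for Palmul-tang and -0.38 ± 0.05 (adjusted p = 1.38e-06) for Sibjeondaebo-tang. PARP14 at the high dose against vehicle gave -0.37 ± 0.06 (adjusted p = 1.56e-05) for Sagunja-tang, -0.32 ± 0.06 (adjusted p = 0.000117) for Samul-tang, -0.32 ± 0.05 (adjusted p = 1.82e-05) for Palmul-tang and -0.45 ± 0.05 (adjusted p = 7.96e-08) for Sibjeondaebo-tang. These 8 calls held with any 1 library left out, although with only the 4 libraries of low and high dose in the fit the Sagunja-tang call against the low dose did not pass (adjusted p = 0.570). PARP9 (30.6 to 40.2 CPM), which works in a complex with DTX3L, gave -0.37 ± 0.08, -0.37 ± 0.08, -0.33 ± 0.07 and -0.39 ± 0.07 against vehicle, and -0.32 ± 0.09, -0.28 ± 0.09 and -0.30 ± 0.07 against low dose with Sagunja-tang, Samul-tang and Sibjeondaebo-tang. DTX3L (76.0 to 89.4 CPM) gave -0.23 ± 0.05, -0.20 ± 0.05, -0.17 ± 0.04 and -0.19 ± 0.04 against vehicle and was called against low dose with Sagunja-tang only (-0.20 ± 0.05). PARP9 and DTX3L overlap at their starts on opposite strands, so where counting ignored strand their reads could mix. PARP9 with Sagunja-tang against vehicle did not pass without high-dose replicate 2 (adjusted p 0.139), with Sagunja-tang against low dose without high-dose replicate 2 or low-dose replicate 2 or 3 (adjusted p 0.0975 to 0.638) and with Samul-tang against low dose without high-dose replicate 2 or 3 or low-dose replicate 2 or 3 (adjusted p 0.0721 to 0.328). DTX3L with Sagunja-tang against vehicle did not pass without high-dose replicate 2 (adjusted p 0.0818), with Sagunja-tang against low dose without high-dose replicate 2 or low-dose replicate 2 or 3 (adjusted p 0.0798 to 0.535) and with Samul-tang without high-dose replicate 3 (adjusted p 0.0949).

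PARP12 (ENSG00000059378, chromosome 7, 140023744 to 140063721), another enzyme of this family, was lower than vehicle without a step between low and high dose that passed the test. PARP12 measured 33.6, 35.6 and 36.5 CPM in the 3 vehicle libraries, and at the low dose 31.2 and 31.4 for Sagunja-tang, 30.3 and 31.9 for Samul-tang, 31.8, 32.4 and 33.3 for Palmul-tang and 32.0, 32.99 and 32.5 for Sibjeondaebo-tang. Medium-dose PARP12 values were 31.8 and 34.4 for Sagunja-tang, 29.9 and 31.5 for Samul-tang, 34.7, 31.2 and 33.5 for Palmul-tang and 32.2, 31.6 and 31.0 for Sibjeondaebo-tang. High-dose PARP12 values were 27.6 and 29.6 for Sagunja-tang, 28.2 and 30.2 for Samul-tang, 32.5, 31.4 and 30.9 for Palmul-tang and 31.5, 29.9 and 31.4 for Sibjeondaebo-tang. High-dose libraries were under all vehicle libraries, and they overlapped with the medium dose in all extracts but Sagunja-tang. PARP12 at the high dose against vehicle gave -0.30 ± 0.05 (adjusted p = 5.13e-05) for Sagunja-tang, -0.27 ± 0.05 (adjusted p = 0.000218) for Samul-tang, -0.16 ± 0.04 (adjusted p = 0.00745) for Palmul-tang and -0.19 ± 0.04 (adjusted p = 0.00137) for Sibjeondaebo-tang. PARP12 at high against low dose gave -0.13 ± 0.06, -0.09 ± 0.05, -0.04 ± 0.04 and -0.07 ± 0.04, none called. In all, 8 of the 12 comparisons of PARP12 with vehicle were called lower. PARP12 at the low dose of Sagunja-tang did not pass without vehicle replicate 3 or low-dose replicate 2 or 3 (adjusted p 0.0683 to 0.138), at the medium dose of Samul-tang without medium-dose replicate 2 (adjusted p 0.165), at the low dose of Samul-tang without vehicle replicate 3 or low-dose replicate 2 (adjusted p 0.0648 to 0.211) and at the medium dose of Sibjeondaebo-tang without vehicle replicate 3 or medium-dose replicate 3 (adjusted p 0.0538 to 0.0644).

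The nuclear body proteins SP100 and SP110 and the ubiquitin ligases TRIM21 and TRIM25 had small fold changes, and each was called lower in at least 1 comparison. TRIM21 (ENSG00000132109, chromosome 11, 4384897 to 4393696), a receptor for antibodies in the cytosol, was called lower than vehicle at the high dose of 3 extracts. TRIM21 measured 20.5, 20.7 and 20.7 CPM in the 3 vehicle libraries, and at the low dose 19.5 and 19.6 for Sagunja-tang, 21.2 and 20.1 for Samul-tang, 20.5, 18.7 and 19.6 for Palmul-tang and 20.3, 20.05 and 21.0 for Sibjeondaebo-tang. Medium-dose TRIM21 values were 19.3 and 19.5 for Sagunja-tang, 19.4 and 19.6 for Samul-tang, 19.7, 18.3 and 19.4 for Palmul-tang and 20.2, 20.7 and 19.5 for Sibjeondaebo-tang. High-dose TRIM21 values were 17.7 and 18.1 for Sagunja-tang, 17.5 and 16.6 for Samul-tang, 18.7, 18.3 and 17.7 for Palmul-tang and 19.6, 19.3 and 20.2 for Sibjeondaebo-tang. The vehicle libraries lay within a narrow band, and the high-dose libraries were under them with every extract. TRIM21 at the high dose against vehicle gave -0.21 ± 0.05 (adjusted p = 0.00114) for Sagunja-tang, -0.28 ± 0.05 (adjusted p = 7.63e-05) for Samul-tang, -0.18 ± 0.04 (adjusted p = 0.00158) for Palmul-tang and -0.07 ± 0.04 (adjusted p = 0.225) for Sibjeondaebo-tang. High against low dose TRIM21 was called with Samul-tang only, at -0.28 ± 0.05 (adjusted p = 0.000475). TRIM25, which activates RNA sensing, ran from 113 to 129 CPM and was called once (-0.13 ± 0.04 at the high dose of Sagunja-tang against vehicle). SP100 (25.3 to 29.8 CPM) was lower than vehicle at the high dose of every extract but Sagunja-tang (-0.22 ± 0.06, -0.17 ± 0.05 and -0.19 ± 0.05). It was also called lower at the high than at the low dose of 1 extract, which did not pass in at least 1 fit with a library left out. SP110 (8.90 to 11.2 CPM) was lower at the high than at the low dose of Samul-tang (-0.33 ± 0.09) and Sibjeondaebo-tang (-0.26 ± 0.07). TRIM25 did not pass without vehicle replicate 2 or high-dose replicate 2 (adjusted p 0.106 to 0.577). SP100 with Samul-tang did not pass without high-dose replicate 2 (adjusted p 0.0709) and with Palmul-tang without high-dose replicate 2 (adjusted p 0.0658). SP110 with Samul-tang did not pass without high-dose replicate 2 or 3 or low-dose replicate 2 or 3 (adjusted p 0.0707 to 0.171).

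SAMD9 (ENSG00000205413, chromosome 7, 93099513 to 93118023), a cytoplasmic protein gene known for restricting poxviruses and cell growth, was the one member called lower than vehicle in all 12 comparisons. SAMD9 measured 75.1, 87.2 and 76.5 CPM in the 3 vehicle libraries, and at the low dose 67.2 and 65.0 for Sagunja-tang, 63.2 and 68.6 for Samul-tang, 64.2, 61.5 and 70.7 for Palmul-tang and 68.9, 62.5 and 65.7 for Sibjeondaebo-tang. Medium-dose SAMD9 values were 66.7 and 62.9 for Sagunja-tang, 59.2 and 62.4 for Samul-tang, 67.0, 62.4 and 64.6 for Palmul-tang and 67.9, 61.7 and 61.7 for Sibjeondaebo-tang. High-dose SAMD9 values were 52.0 and 67.8 for Sagunja-tang, 60.7 and 61.2 for Samul-tang, 63.2, 57.6 and 59.9 for Palmul-tang and 68.2, 58.1 and 61.6 for Sibjeondaebo-tang. All 30 extract libraries were under all 3 vehicle libraries, and high-dose and low-dose libraries overlapped with every extract but Samul-tang. SAMD9 at the high dose against vehicle gave -0.41 ± 0.08 (adjusted p = 0.000391) for Sagunja-tang, -0.39 ± 0.08 (adjusted p = 0.00104) for Samul-tang, -0.40 ± 0.07 (adjusted p = 0.000152) for Palmul-tang and -0.35 ± 0.07 (adjusted p = 0.000479) for Sibjeondaebo-tang. The medium dose gave -0.30 ± 0.08, -0.39 ± 0.08, -0.30 ± 0.07 and -0.32 ± 0.07 and the low dose -0.27 ± 0.08, -0.27 ± 0.08, -0.28 ± 0.07 and -0.28 ± 0.07. SAMD9 at high against low dose gave -0.14 ± 0.09, -0.11 ± 0.09, -0.12 ± 0.07 and -0.07 ± 0.07, none called. The step between vehicle and extracts also separates the sample codes, and the part of that in the result cannot be told apart. Without vehicle replicate 2, the highest library, 6 of the 12 calls did not pass, with adjusted p from 0.0534 to 0.125. SAMD9 did not pass at Sagunja-tang high dose without replicate 2 (adjusted p 0.0735), Sagunja-tang medium dose without replicate 2 or 3 (adjusted p 0.0941 and 0.133), Sagunja-tang low dose without replicate 2 or 3 (adjusted p 0.112 and 0.139), Samul-tang medium dose without replicate 2 (adjusted p 0.0665), Samul-tang low dose without replicate 2 or 3 (adjusted p 0.259 and 0.0667) and Palmul-tang low dose without replicate 2 (adjusted p 0.0709).

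The neighbouring SAMD9L, a close relative, was at or under 0.425 CPM in every library. It was called lower at the high than at the low dose of Samul-tang (-2.70 ± 0.84), Palmul-tang (-1.88 ± 0.62) and Sibjeondaebo-tang (-2.37 ± 0.64). These values rest on 0 to 3, 1 to 5 and 1 to 3 counts per high-dose library and 7 to 14, 4 to 14 and 7 to 18 per low-dose library. At such counts the fitted fold change depends on the prior count of edgeR. SAMD9L with Samul-tang did not pass without low-dose replicate 2 or 3 or high-dose replicate 3 (adjusted p 0.0592 to 0.371), with Palmul-tang without high-dose replicate 1 or 2 or low-dose replicate 2 or 3 (adjusted p 0.0752 to 0.255) and with Sibjeondaebo-tang without low-dose replicate 2 (adjusted p 0.0561).

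The IFI genes are named for their induction by interferon, and they split between higher and lower. IFI35 was 7.86, 6.81 and 7.11 CPM in vehicle and higher in 6 of the 12 comparisons, with 0.36 ± 0.11 (adjusted p = 0.00944) at the high dose of Sagunja-tang and 0.40 ± 0.09 (adjusted p = 0.00327) at the low dose of Sibjeondaebo-tang. IFI27 was 8.69, 9.88 and 7.78 CPM in vehicle, 14.0 and 11.0 at the high dose of Sagunja-tang (0.50 ± 0.14, adjusted p = 0.00654) and 8.59 and 7.57 at that of Samul-tang. It was higher than vehicle in 5 comparisons, and lower at the high than at the low dose of Samul-tang (-0.59 ± 0.15, adjusted p = 0.0129). At the low dose IFI35 was called higher than vehicle with all 4 extracts and IFI27 with all but Palmul-tang. With a library left out, 5 of the 6 calls of IFI35 and all 5 of IFI27 against vehicle did not pass in at least 1 fit. IFI6 (4.12 to 6.39 CPM) was lower than vehicle at the high dose of Samul-tang (-0.64 ± 0.22) and Sibjeondaebo-tang (-0.60 ± 0.19). It was also called lower at the high than at the low dose of 1 extract, which did not pass in at least 1 fit with a library left out. IFI44 (4.29 to 6.03 CPM) and IFI44L (0.155 to 0.771 CPM) were lower at the high than at the low dose of Sibjeondaebo-tang (-0.33 ± 0.11 and -1.78 ± 0.53). Each was also called lower than vehicle at the high dose of 1 extract, and neither of these calls passed without vehicle replicate 2. IFI35 at the high dose of Sagunja-tang did not pass without high-dose replicate 2 (adjusted p 0.260), at the medium dose of Sibjeondaebo-tang without medium-dose replicate 3 (adjusted p 0.0811), at the low dose of Sagunja-tang without vehicle replicate 2 or 3 or low-dose replicate 2 (adjusted p 0.0504 to 0.163), at the low dose of Samul-tang without low-dose replicate 2 (adjusted p 0.0920) and at the low dose of Palmul-tang without vehicle replicate 2 or 3 or low-dose replicate 1 or 2 (adjusted p 0.0670 to 0.132). IFI27 at the high dose of Sagunja-tang did not pass without high-dose replicate 2 (adjusted p 0.207), at the medium dose of Sibjeondaebo-tang without vehicle replicate 3 (adjusted p 0.0948), at the low dose of Sagunja-tang without low-dose replicate 2 (adjusted p 0.145), at the low dose of Samul-tang without vehicle replicate 3 or low-dose replicate 2 or 3 (adjusted p 0.0982 to 0.125), at the low dose of Sibjeondaebo-tang without vehicle replicate 3 or low-dose replicate 3 (adjusted p 0.0762 to 0.0791) and for high against low dose of Samul-tang without low-dose replicate 2 or 3 or high-dose replicate 3 (adjusted p 0.0634 to 0.142). IFI6 with Samul-tang did not pass without vehicle replicate 2 or high-dose replicate 2 or 3 (adjusted p 0.0790 to 0.171) and with Sibjeondaebo-tang without vehicle replicate 2 (adjusted p 0.0545). IFI44 did not pass without high-dose replicate 1, 2 or 3 or low-dose replicate 3 (adjusted p 0.0652 to 0.120). IFI44L did not pass without high-dose replicate 1 or 2 or low-dose replicate 2 (adjusted p 0.0536 to 0.168).

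Of the remaining members, ISG20, an RNA exonuclease gene with group means of 2.06 to 3.48 CPM, was lower than vehicle at the high dose of Samul-tang (-0.75 ± 0.14, adjusted p = 0.000293), Palmul-tang (-0.51 ± 0.12, adjusted p = 0.00207) and Sibjeondaebo-tang (-0.71 ± 0.13, adjusted p = 6.24e-05). ISG20 was also called lower at the high than at the low dose of 2 extracts. Of these 2 calls, 1 did not pass in at least 1 fit with a library left out. RSAD2, which encodes viperin, had 2 to 17 counts per library and was called lower once, at the high dose of Samul-tang (-1.61 ± 0.59). XAF1, an antagonist of the apoptosis inhibitor XIAP, had 0 to 5 counts per library at the high dose of Samul-tang and 26 to 27 at the low dose, where the fitted value (-3.34 ± 0.90) depends on the prior count of edgeR. Low-dose XAF1 counts were 3 to 10 with Palmul-tang and 3 to 27 with Sibjeondaebo-tang. Against vehicle XAF1 was called lower in 3 comparisons, 2 of them at the high dose. None of these passed in edgeR without vehicle replicate 2 (adjusted p 0.0598 to 0.188). CMPK2, a mitochondrial nucleotide kinase gene next to RSAD2, was called nowhere (1.42 to 1.83 CPM). LGALS3BP, a secreted glycoprotein gene with 670.0 to 749 CPM, was lower than vehicle in 7 of the 12 comparisons with log2 fold changes of -0.14 ± 0.04, -0.15 ± 0.04 and -0.12 ± 0.04 at the high doses where it was called (all but Sibjeondaebo-tang), and was called in no comparison of high with low dose. RSAD2 did not pass without vehicle replicate 2 or high-dose replicate 3 (adjusted p 0.324 to 0.360). XAF1 did not pass without low-dose replicate 2 or 3 or high-dose replicate 3 (adjusted p 0.0783 to 0.231). LGALS3BP at the high dose of Sagunja-tang did not pass without vehicle replicate 3 or high-dose replicate 3 (adjusted p 0.0536 to 0.0679), at the high dose of Samul-tang without high-dose replicate 2 (adjusted p 0.112), at the high dose of Palmul-tang without vehicle replicate 3 (adjusted p 0.129), at the medium dose of Sagunja-tang without vehicle replicate 2 or 3 or medium-dose replicate 2 or 3 (adjusted p 0.0905 to 0.242), at the medium dose of Palmul-tang without vehicle replicate 3 or medium-dose replicate 2 (adjusted p 0.0718 to 0.0932), at the low dose of Sagunja-tang without low-dose replicate 2 (adjusted p 0.161) and at the low dose of Palmul-tang without vehicle replicate 3 or low-dose replicate 2 (adjusted p 0.111 to 0.129).

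Extracts were compared with each other at the high dose. ISG15 and IFI27 were lower with Samul-tang than with Sagunja-tang (-0.46 ± 0.11 with adjusted p = 0.0146 and -0.63 ± 0.15 with adjusted p = 0.0187), and no other member was called (2 of 47, where 1.92% of all genes were lower and 3.55% higher). That count became 0 without Sagunja-tang high-dose replicate 2 or either Samul-tang library, and 9 without Sagunja-tang high-dose replicate 3. STAT2 was lower with Sibjeondaebo-tang than with Palmul-tang, at -0.24 ± 0.05 (adjusted p = 0.00268), as the only member called (1 of 47, where 3.52% of all genes were lower and 0.350% higher). It was called in each of the 6 fits that left out a library.

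Whether the step from low to high dose itself differed between extracts was tested for all 6 pairs of extracts. No member was called by edgeR in any pair, while 0.138, 0.00574, 1.95, 0, 1.49 and 1.45% of all genes were. At an unadjusted p under 0.05 there were 7, 4, 5, 2, 4 and 5 members. The pairs run Sagunja-tang against Samul-tang, Palmul-tang and Sibjeondaebo-tang, Samul-tang against Palmul-tang and Sibjeondaebo-tang, and Palmul-tang against Sibjeondaebo-tang. The smallest adjusted p was that of STAT2, for which the step of Palmul-tang minus that of Sibjeondaebo-tang was 0.24 ± 0.07 (adjusted p = 0.0775). For IFIT2 the same pair gave -0.48 ± 0.14 (adjusted p = 0.107), in the other direction. The count of members called in one extract and not in another is therefore no test of a difference between extracts.

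Genes of the pathway upstream of the members were counted from lists of textbook pathway genes. Of 8 interferon genes 7 did not pass the filter, and IFNB1 was between 0 and 0.0472 CPM in every library. IFNE, an epithelial type I interferon gene, passed, with 6.56, 7.64 and 6.54 CPM in vehicle and 4.35 and 5.24 for Sagunja-tang, 5.01 and 5.78 for Samul-tang, 4.29, 4.80 and 4.90 for Palmul-tang and 3.82, 4.08 and 3.47 for Sibjeondaebo-tang at the high dose. All high-dose libraries were under all vehicle libraries, and the log2 fold changes were -0.52 ± 0.12 (adjusted p = 0.00101) for Sagunja-tang, -0.36 ± 0.11 (adjusted p = 0.0196) for Samul-tang, -0.57 ± 0.10 (adjusted p = 0.000131) for Palmul-tang and -0.87 ± 0.11 (adjusted p = 4.51e-07) for Sibjeondaebo-tang. Against the low dose IFNE was called with Sibjeondaebo-tang only (-0.52 ± 0.11, adjusted p = 0.000513). The difference from vehicle was not limited to the high dose, since IFNE was called in 10 of the 12 comparisons with vehicle. Without vehicle replicate 2, 6 of these calls did not pass. Vehicle had its highest group mean (6.91 CPM), and the step from vehicle to extracts also separates the sample codes. IFNE with Sagunja-tang did not pass without high-dose replicate 2 (adjusted p 0.0576) and with Samul-tang without vehicle replicate 2 or high-dose replicate 2 (adjusted p 0.103 to 0.227).

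Of the 8 receptor and kinase genes, 1, 1, 1 and 0 were higher and 1, 1, 2 and 1 lower than vehicle at the high dose with the 4 extracts in turn. Beside this, 18.7, 15.0, 17.3 and 20.5% of all genes were higher and 18.0, 12.5, 14.8 and 19.1% lower. JAK1 was lower with all 4 (-0.32 ± 0.05, -0.17 ± 0.05, -0.18 ± 0.05 and -0.14 ± 0.05), and TYK2 was higher with Sagunja-tang, Samul-tang and Palmul-tang (0.13 ± 0.05, 0.20 ± 0.05 and 0.20 ± 0.04). This was not limited to the high dose for TYK2, which was called in 9 of the 12 comparisons with vehicle. Without vehicle replicate 2, 5 of these calls did not pass. The group mean of TYK2 was lowest in vehicle (34.4 CPM), and the step from vehicle to extracts also separates the sample codes. IFNGR1 was higher at the high than at the low dose of Palmul-tang (0.15 ± 0.05) and Sibjeondaebo-tang (0.25 ± 0.05), and was called higher than vehicle at no high dose. Its group mean was 70.8 CPM in vehicle, and the highest was 73.8 CPM at the high dose of Sibjeondaebo-tang. JAK1 with Samul-tang did not pass without high-dose replicate 2 or 3 (adjusted p 0.0578 to 0.1098) and with Sibjeondaebo-tang without vehicle replicate 2 or high-dose replicate 3 (adjusted p 0.0534 to 0.0545). TYK2 with Sagunja-tang did not pass without vehicle replicate 2 or high-dose replicate 2 or 3 (adjusted p 0.106 to 0.2504). IFNGR1 with Palmul-tang did not pass without low-dose replicate 1, 2 or 3 or high-dose replicate 2 or 3 (adjusted p 0.0790 to 0.197).

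Of 10 genes for sensing RNA and DNA 9 passed the filter. Against vehicle at the high dose 2, 2, 2 and 3 were higher and 4, 3, 3 and 3 lower, and against the low dose 0, 0, 2 and 1 were higher and 1, 3, 3 and 2 lower. The all-gene shares against vehicle were 18.7, 15.0, 17.3 and 20.5% higher and 18.0, 12.5, 14.8 and 19.1% lower. Against the low dose those shares were 3.33, 4.10, 7.66 and 15.5% higher and 3.86, 3.43, 6.75 and 14.3% lower. STING1, the adaptor of cytosolic DNA sensing, was 14.7, 14.9 and 15.7 CPM in vehicle, and at the high dose 13.1 and 13.3 for Sagunja-tang, 12.2 and 11.96 for Samul-tang, 11.51, 11.48 and 13.3 for Palmul-tang and 12.4, 12.1 and 12.6 for Sibjeondaebo-tang. High against low dose it gave -0.27 ± 0.07 (adjusted p = 0.0217) for Sagunja-tang, -0.38 ± 0.07 (adjusted p = 0.000796) for Samul-tang, -0.33 ± 0.06 (adjusted p = 0.000212) for Palmul-tang and -0.40 ± 0.06 (adjusted p = 6.34e-06) for Sibjeondaebo-tang, so it was lower in all 4, like the 5 members named above. RIGI, the sensor of viral RNA ends, was lower than vehicle at all 4 high doses (-0.24 ± 0.08, -0.32 ± 0.08, -0.49 ± 0.07 and -0.36 ± 0.07), as was TLR3, the endosomal sensor of double-stranded RNA (-0.35 ± 0.12, -0.58 ± 0.11, -0.68 ± 0.10 and -0.39 ± 0.10). IRF3, the factor that switches on interferon genes, was higher at all 4 (0.32 ± 0.06, 0.16 ± 0.06, 0.25 ± 0.05 and 0.19 ± 0.05). It was called in 7 comparisons with vehicle, which had its lowest group mean (106 CPM), and in 1 of high with low dose. STING1 with Sagunja-tang did not pass without high-dose replicate 2 or low-dose replicate 2 or 3 (adjusted p 0.0726 to 0.228). RIGI with Sagunja-tang did not pass without vehicle replicate 1 or 2 or high-dose replicate 2 (adjusted p 0.0612 to 0.294) and with Samul-tang without high-dose replicate 2 (adjusted p 0.100). TLR3 with Sagunja-tang did not pass without vehicle replicate 1 or high-dose replicate 2 (adjusted p 0.0816 to 0.261). IRF3 with Samul-tang did not pass without vehicle replicate 3 or high-dose replicate 2 or 3 (adjusted p 0.112 to 0.197).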

How the data were processed

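RNA-seq of 33 HT29 libraries in 13 groups was used. Per the submitters' processing notes, the tools were FastQC 0.11.9, Trim Galore 0.6.5, STAR 2.7.3a and RSEM 1.3.3 with the hg38 genome, and the annotation release is not given in the sources used here. The deposited table holds RSEM expected counts per Ensembl gene, not normalized, and 9.45% of the values are not whole, so they were rounded. It has 273 columns of per-sample values, of which 240 were not used. The total counts per library limit precision for members under 1 CPM.

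Genes were kept by filterByExpr of edgeR 4.0.16 (R 4.3.3, limma 3.58.1) with a minimum count of 10, which left 17432. Counts were scaled by TMM and tested by edgeR's quasi-likelihood test on 1 model with a term for each of the 13 groups (residual df 20, prior df 7.00, common biological coefficient of variation 0.0489). P-values were Benjamini-Hochberg adjusted over all genes tested, and a gene was called at an adjusted p under 0.05. The SE is the log2 fold change over the square root of F. The 23 comparisons are each dose against vehicle, their mean, high against low dose, Samul-tang against Sagunja-tang and Sibjeondaebo-tang against Palmul-tang at high dose, and high against medium dose, which was added after seeing the data, as were the 6 contrasts of the low-to-high step between extracts. Positions and exon lengths are from GENCODE 29 (hg38) and promoters from RefSeq (GRCh38.p14). Python 3.11.15, pandas 2.3.3 and matplotlib 3.10.9 made tables and figures. The scripts were tested on simulated data.

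The members and lists were chosen with earlier results of these data known. Members given library by library are the 2 of smallest p in each comparison of high dose with vehicle and with low dose and in the mean of the extract groups. MX1, OAS2, IRF9 and BST2 were added after their values were seen. Pathway genes that are not members are named up to 4 a list, by smallest p. Alternatives were RLE scaling, no low-count filter, the replicate number as a block, DESeq2 1.42.0 without that filter, only the groups compared, and leaving out each library in turn, where a lone library of a group is assumed to vary like the others.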

Additional observations from a re-analysis of the deposited data

How the results depend on the processing

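Counts of members called kept within 1.5 times of the values reported under RLE scaling for all 23 comparisons, and no call of a member changed sign under any alternative run. Without the low-count filter, 8 members were called for medium-dose Sagunja-tang against vehicle (4 with it), 13 for medium-dose Samul-tang (7), 10 for low-dose Palmul-tang (6), 4 for Samul-tang against Sagunja-tang (2), and 10 and 8 for high against medium dose of Sagunja-tang (4) and Samul-tang (3). DESeq2 called 5 for Samul-tang against Sagunja-tang and 7 for high against medium dose of Sagunja-tang. With only the groups compared in the fit, edgeR called 8 for high-dose Sagunja-tang against vehicle (23 with all groups), 3 for medium-dose Palmul-tang (7), and 0 for high against low dose of Sagunja-tang (10), Samul-tang against Sagunja-tang and high against medium dose of Sagunja-tang, where 12, 5 and 7 had an unadjusted p under 0.05. With the replicate block, 5 members were called for Samul-tang against Sagunja-tang, and every other count stayed within 1.5 times. Whether the replicate numbers pair the samples was not settled. Correlations of same-numbered libraries in different groups ran from -0.169 to 0.172 (177 pairs, median 0.0239, 16 over 0.1). For libraries of different number the median was -0.0147. By number, 24 of 33 libraries correlated best with their own, which is a hint from the data and not the design.

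With 1 library left out, counts ran from 9 to 26, 15 to 26, 18 to 24 and 17 to 24 for the high dose against vehicle of the 4 extracts in the order used above. They ran from 1 to 4, 1 to 10, 2 to 8 and 4 to 12 for the medium dose, from 2 to 10, 2 to 9, 2 to 9 and 4 to 10 for the low dose, and from 14 to 23 for the mean of all extract groups. High against low dose gave 2 to 19, 7 to 11, 6 to 11 and 16 to 20, and high against medium dose 0 to 13, 0 to 0, 1 to 6 and 7 to 12. Samul-tang against Sagunja-tang gave 0 to 9 (5 of the 9 lower), and Sibjeondaebo-tang against Palmul-tang 1 to 1. Of the single calls of members tried under each alternative, 377 of 2003 with a library left out, 57 of 229 with only the groups compared, 23 of 259 without the filter, 11 of 247 by DESeq2, 2 of 259 with the block and 0 of 259 with RLE scaling no longer passed. The Sagunja-tang and Samul-tang results rest on groups of 2 libraries, and 7 members under 1 CPM rest on few counts.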

Other observations

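Beyond the members and the genes upstream of them, a pair of lists bears on the same pathway. Of 6 genes that restrain interferon signalling 5 passed the filter, and at the high dose against vehicle 3, 3, 2 and 3 were called lower by edgeR and none higher, with none called between high and low dose. Among all genes 18.0, 12.5, 14.8 and 19.1% were lower than vehicle at the high dose and 18.7, 15.0, 17.3 and 20.5% higher. Between high and low dose 7.19, 7.53, 14.4 and 29.9% of all genes were called in either direction. PIAS1, a SUMO ligase that restrains signalling, was lower than vehicle in all 12 comparisons, with -0.42 ± 0.06, -0.31 ± 0.06, -0.34 ± 0.05 and -0.35 ± 0.05 at the high doses. Vehicle had its highest group mean (116 CPM), and the step from vehicle to extracts also separates the sample codes. PTPN6, a tyrosine phosphatase gene, was lower at the 4 high doses (-0.26 ± 0.06, -0.16 ± 0.06, -0.20 ± 0.05 and -0.16 ± 0.05). SOCS1 was lower at the high dose of Samul-tang (-1.24 ± 0.46) and Sibjeondaebo-tang (-1.18 ± 0.41), at no more than 0.3501 CPM in any library. PIAS1 at the medium dose of Sagunja-tang did not pass without medium-dose replicate 2 (adjusted p 0.0906), at the medium dose of Samul-tang without medium-dose replicate 2 (adjusted p 0.0515), at the low dose of Sagunja-tang without low-dose replicate 2 (adjusted p 0.0503) and at the low dose of Samul-tang without low-dose replicate 2 or 3 (adjusted p 0.0505 to 0.0626). PTPN6 with Samul-tang did not pass without vehicle replicate 2 or 3 or high-dose replicate 2 (adjusted p 0.0869 to 0.291) and with Sibjeondaebo-tang without vehicle replicate 2 or 3 or high-dose replicate 2 (adjusted p 0.0550 to 0.112). SOCS1 with Samul-tang did not pass without vehicle replicate 1 or 3 or high-dose replicate 2 or 3 (adjusted p 0.0750 to 0.216) and with Sibjeondaebo-tang without vehicle replicate 1 or high-dose replicate 1 (adjusted p 0.0900 to 0.111).

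Of 15 genes known as targets of interferon gamma 11 passed. High against low dose 1, 1, 1 and 2 were higher and 0, 1, 4 and 1 lower. For all genes tested the shares were 3.33, 4.10, 7.66 and 15.5% higher and 3.86, 3.43, 6.75 and 14.3% lower. GBP3, a guanylate-binding protein gene, was lower than vehicle at all 4 high doses (-0.26 ± 0.06, -0.26 ± 0.05, -0.33 ± 0.05 and -0.34 ± 0.05), and GBP1 was lower with Palmul-tang (-0.93 ± 0.22) and Sibjeondaebo-tang (-0.54 ± 0.22). IFI30, which encodes a lysosomal thiol reductase used in antigen processing, was higher at all 4 (0.30 ± 0.05, 0.16 ± 0.05, 0.33 ± 0.05 and 0.36 ± 0.05). This was not limited to the high dose, since IFI30 was called in 9 comparisons with vehicle. Vehicle had its lowest group mean (19.1 CPM), and the step from vehicle to extracts also separates the sample codes. WARS1, the tryptophan tRNA synthetase gene, was higher at the high than at the low dose of Samul-tang (0.14 ± 0.04), Palmul-tang (0.13 ± 0.04) and Sibjeondaebo-tang (0.18 ± 0.04). Its group mean was 113 CPM in vehicle. The lowest was 101 CPM at the low dose of Samul-tang, and the highest 118 CPM at the high dose of Sibjeondaebo-tang. GBP1 with Sibjeondaebo-tang did not pass without vehicle replicate 1, 2 or 3 or high-dose replicate 1 or 2 (adjusted p 0.0557 to 0.152). IFI30 with Samul-tang did not pass without vehicle replicate 2 or 3 or high-dose replicate 3 (adjusted p 0.0780 to 0.429). WARS1 with Samul-tang did not pass without high-dose replicate 2 or 3 or low-dose replicate 2 or 3 (adjusted p 0.130 to 0.335) and with Palmul-tang without high-dose replicate 1 or 2 or low-dose replicate 2 (adjusted p 0.0661 to 0.201).

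Split by the promoter match, the 22 members with a match had median log2 fold changes of high against low dose of -0.25, -0.29, -0.24 and -0.32 in the 4 extracts, and the 17 without it -0.19, -0.26, -0.14 and -0.18. The split was not tested.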
